A study of Homo sapiens with 18 samples.

Results

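Transcript levels in cells exposed to Salmonella flagellin for 120 min were set directly against those exposed for 60 min, without subtracting mock. The cells came from HEK293, a line derived from human embryonic kidney, and carried extra TLR5 of the mouse. The flagellin was isolated from Salmonella Typhimurium SL1344 (ST). The comparison used 3 arrays titled ST at 120 min and 3 titled ST at 60 min, which is 6 of the 18 arrays of the study. The other 12 arrays held mock-treated cells at 120 and 60 min and cells given flagellin of E. coli Nissle (EcN) at 120 and 60 min, with 3 arrays in each group. Each group has replicates lettered A, B and C, titled as biological replicates. Whether the letters mark separately grown cells is not stated, so the p-values measure the spread between these arrays, which may be technical. All groups share the transgenic line and culture with light, medium or heavy isotopes of lysine and arginine (SILAC media), and both flagellins were dosed to match a multiplicity of infection of 10. The isotope that went with each array is not stated. The 6 ST arrays carry a description that names mock, against their titles, source names and treatment fields, which name ST and were followed. The line is a model of a flagellin-responsive cell, and its added receptor is of another species than the cells. Probes for the human TLR5 gene also read above the array median on all 18 arrays, so the added receptor may not be the only one.

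The members are the genes measured by exactly 1 named transcript cluster or by the brightest of several, a transcript cluster being the set of probes the array summarises for 1 gene. Of 53617 transcript clusters, 23871 had exactly 1 gene symbol. Those above the median of their own array on at least 3 of the 18 arrays gave 16111 genes to test. Levels are log2 values, so a difference of 1 is a doubling or halving. Bulk RNA cannot separate fewer responding cells from less RNA per cell.

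TLR5 is the cell-surface receptor for bacterial flagellin and signals through the adaptor MyD88 to the kinases that activate NF-kB and the MAP kinases. MAP kinases switch on immediate-early genes such as FOS and EGR1 through serum response factor, which binds DNA elements called CArG boxes, and this transcription is known to be brief. The EGR factors induce their own corepressor, NAB2, and NF-kB induces its own inhibitors, NFKBIA and TNFAIP3, so both branches are known for early feedback.

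Promoter stretches of 5 genes are shown because they hold the elements that these pathways are known to use and because the genes recur in the results below. They come from RefSeq, assembly GRCh38.p14, run 5′ to 3′ on the strand of the gene, and have the motif in capitals. EGR1 (chr5:138465359-138465418, plus strand) and the actin-binding protein gene CNN2 (chr19:1026488-1026547, plus strand) show CArG boxes, 2 in EGR1 and 1 in CNN2. NAB2 (chr12:57089024-57089083, plus strand) shows 1 match to the EGR motif GCGNGGGCG. NFKBIA (chr14:35404800-35404859, minus strand) shows 1 NF-kB motif. ISG15 (chr1:1013357-1013416, plus strand), an interferon-induced ubiquitin-like protein gene, shows 2 overlapping matches to the interferon response motif, GAAA on either side of 2 free bases.
EGR1: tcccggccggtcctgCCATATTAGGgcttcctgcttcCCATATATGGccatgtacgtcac
CNN2: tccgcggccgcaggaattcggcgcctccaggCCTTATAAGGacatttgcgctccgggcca
NAB2: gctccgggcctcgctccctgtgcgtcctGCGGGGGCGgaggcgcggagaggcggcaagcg
NFKBIA: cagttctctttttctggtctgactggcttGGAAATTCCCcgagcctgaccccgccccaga
ISG15: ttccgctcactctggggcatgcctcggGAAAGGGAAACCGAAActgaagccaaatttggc
Both strands of the 250 bases before each start were searched. Among 35116 promoters of that length, 1.16% held a CArG box, 8.41% the EGR motif, 9.96% the NF-kB motif and 3.02% the interferon response motif. EGR1 and CNN2 also held an EGR motif there, and ISG15 a CArG box. Among genes named below, the EGR motif was also found for ZNRF2, TLR5, TNF and 1 of 5 promoters of RGMA. The promoters of FOS, FOSB, IER2, JUN, JUNB and ATF3 held no CArG box, and those of CXCL8 and TNF no NF-kB motif. A match describes the letters and is not evidence of binding, and no match says only that these letters are not in this window.

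Some arrays stood apart before any comparison. CXCL8, the neutrophil-attracting chemokine that NF-kB induces, had log2 levels of 2.90, 2.71 and 8.76 on the ST 120 min arrays A, B and C, against 2.39, 2.84 and 7.92 on the ST 60 min arrays. EcN showed the same split, with 2.67, 2.57 and 7.47 at 120 min and 2.35, 2.52 and 5.62 at 60 min. Mock cells had 7.53, 2.46 and 2.26 at 120 min and 2.16, 2.70 and 2.35 at 60 min. High CXCL8 was therefore found on the C arrays of both flagellins at both times and on the mock 120 min A array, while the A and B flagellin arrays lay at the level of the other mock arrays. The mock 120 min A array and the A and B flagellin arrays go against their labels in this response, and the cause was not tested. The mean level of 21 cytokine and chemokine genes had the same order, with 2.98, 3.03 and 4.34 on the ST 120 min arrays, against 2.91, 3.03 and 3.83 on the ST 60 min arrays. It was 4.24 on the mock 120 min A array and between 2.85 and 3.19 on the other mock arrays. Interferon-stimulated genes did not share this split: their mean level over 32 genes was 5.84 to 6.19 on the ST 120 min arrays and 6.0 to 6.20 on the ST 60 min arrays, and it was 4.64 on the mock 120 min A array.

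No gene passed an adjusted p of 0.05 between 120 and 60 min of ST, out of 16111 tested with limma (Benjamini-Hochberg adjustment over all genes). The smallest adjusted p was 0.363, shared by NAB2 and the antisense transcript ZBTB7C-AS2. ZBTB7C-AS2 lay above the array medians only on the 3 ST 60 min arrays, so it passed the filter on low values only through the group where it is high, and its p supports nothing. Fewer than 3 arrays lay above the median outside ST 120 min for 171 of the tested genes and outside ST 60 min for 185. At an unadjusted p under 0.05, limma gave 330 genes higher (2.05%) and 443 lower (2.75%) at 120 min, together 4.8% of the genes. Under an unadjusted p of 0.001 there were 12 genes, where 16.1 would fall if no gene changed. An exact permutation test of a single gene with 3 against 3 arrays cannot go below a two-sided p of 0.10. Separate values at the 2 times, with every array of one group above every array of the other, were found for 1922 genes, 11.9% of all (985 higher and 937 lower).

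The width of the intervals limits what this comparison could miss. The median standard error of a log2 difference was 0.14 and the median 95% interval reached 0.30 to either side. For 15711 genes (97.5%) the interval lay within 2-fold in both directions, and for 12668 genes (78.6%) within 1.5-fold. Within 2-fold lay only 13 of 21 cytokine and chemokine genes, 11 of 18 NF-kB subunit and inhibitor genes, 8 of 19 other NF-kB targets and 17 of 29 immediate-early genes. A 2-fold difference of many of these could thus be missed by this fit. It was unpaired and took its spread from all 18 arrays. The intervals therefore hold the split between letters and the mock 120 min A array. Differences within the same letter are given below for NFKBIA, TNFAIP3 and CXCL8. For TLR5 and MyD88 signalling genes the interval lay within 2-fold for 18 of 18, and for MAP kinase feedback inhibitors for 15 of 16. Only 9 genes had an absolute log2 difference of at least 1, with 2 higher (MIR4525 at 1.09 and MIR4481 at 1.24) and 7 lower at 120 min, and 117 genes (0.726%) were at least 1.5-fold apart.

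**Figure D1:**
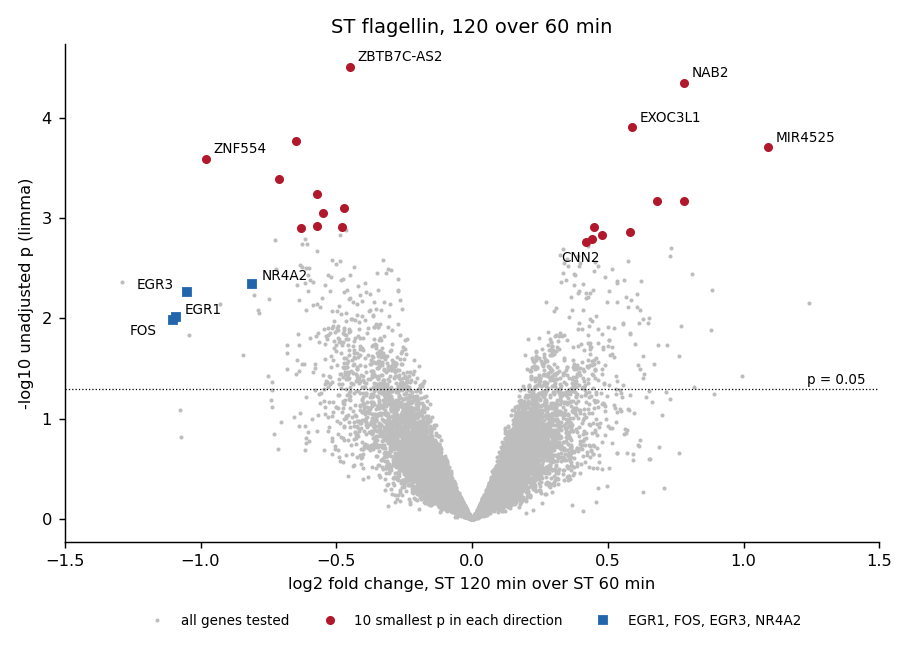
Log2 fold change of ST 120 min over ST 60 min (horizontal axis) against -log10 of the unadjusted limma p (vertical axis) for 16111 genes, each a grey point, with the 10 smallest p in each direction in red and 4 immediate-early genes as blue squares. NAB2 and ZBTB7C-AS2 stand highest, each with an adjusted p of 0.363 (ZBTB7C-AS2 passed the filter only through the ST 60 min arrays), and the 4 immediate-early genes lie at log2 fold changes between -1.10 and -0.81.

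Immediate-early transcription factors held 4 of the 7 genes that lay lower by at least 1 log2 unit at 120 min of ST, namely EGR1, EGR3, FOS and FOSB. FOS, FOSB and IER2 are named outside the rule, after their values were seen. EGR1, a zinc finger factor and early target of MAP kinase signalling, had log2 levels of 9.41, 9.51 and 10.01 at 120 min, against 10.33, 10.35 and 11.52 at 60 min. EGR3, a factor of the same family, had 5.25, 4.81 and 5.55 at 120 min, against 6.05, 5.87 and 6.83 at 60 min. Every 120 min array lay below every 60 min array for both genes, and array C was the highest of its group at each time. The log2 difference was -1.09 ± 0.37 (SE, 95% interval -1.88 to -0.30) for EGR1 and -1.05 ± 0.33 for EGR3, with limma adjusted p of 0.990 and 0.886.

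FOS, the partner of JUN in the AP-1 factor, had log2 levels of 5.71, 5.92 and 6.25 at 120 min of ST, against 6.54, 6.67 and 7.97 at 60 min. NR4A2, an orphan nuclear receptor induced early by many stimuli, had 6.15, 6.23 and 6.51 at 120 min, against 6.76, 6.90 and 7.66 at 60 min. The groups did not overlap for either gene, and the differences were -1.10 ± 0.38 and -0.81 ± 0.25 (SE). FOSB differed by -1.07 ± 0.71, with levels of 6.19, 5.62 and 8.05 at 120 min against 6.84, 6.78 and 9.47 at 60 min. Its groups overlapped because both C arrays lay above the rest. IER2 differed by -0.75 ± 0.33, also with overlap. JUN, the other AP-1 partner, differed by -0.34 ± 0.31, JUNB by -0.27 ± 0.59 and ATF3 by -0.25 ± 0.34, and these are likewise named outside the rule.

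MAFF, a small MAF factor of the same list, lay the other way, with log2 levels of 3.79, 3.79 and 4.25 at 120 min of ST, against 3.27, 3.57 and 3.17 at 60 min. The difference was 0.61 ± 0.19 (SE), with all 120 min arrays above all 60 min arrays. Over the 29 immediate-early genes tested, of 32 listed, the median difference was -0.12, where the median over all genes was 0.00. None passed the adjusted test and 18 lay below 0. By an unadjusted p under 0.05, 1 gene was higher and 5 were lower, where 2.05% and 2.75% of all genes were. The groups were separate for 2 genes in the higher and 4 in the lower direction, where 6.11% and 5.82% of all genes were. The list was chosen with earlier results of these data known and its members are not independent, so these counts are descriptive. Per letter the list's median was 0.05 for A, -0.05 for B and -0.44 for C. Without the C arrays 15 of 29 lay below 0, where 8179 of all 16111 genes did. An unadjusted p under 0.05 was then found for 4 lower genes (EGR1, EGR3, FOS and FOSB) and 0 higher ones, where 340 and 287 of all genes were. EGR1 then differed by -0.88 ± 0.30, EGR3 by -0.93 ± 0.32, FOS by -0.79 ± 0.23 and NR4A2 by -0.64 ± 0.29, while MAFF differed by 0.37 ± 0.22.

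**Figure D2:**
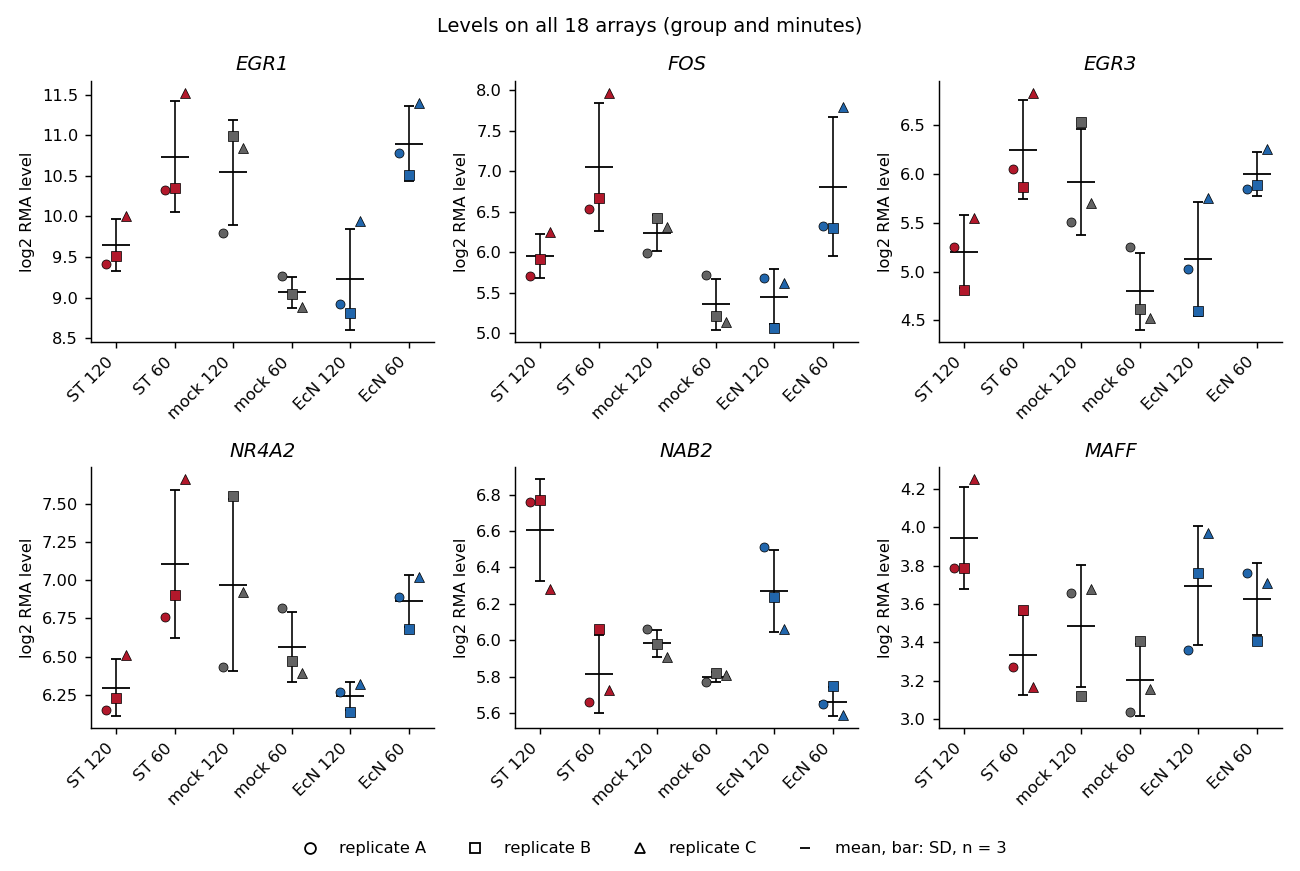
Log2 levels of EGR1, FOS, EGR3, NR4A2, NAB2 and MAFF on all 18 arrays, by group and minutes, with replicates A, B and C as circle, square and triangle, horizontal lines for means and bars for the SD (n = 3). EGR1 lay at 9.41 to 10.01 at 120 min of ST and 10.33 to 11.52 at 60 min, while NAB2 lay at 6.28 to 6.77 and 5.66 to 6.06.

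NAB2, the corepressor that binds EGR factors, had the smallest p among genes higher at 120 min of ST. Its log2 levels were 6.76, 6.77 and 6.28 at 120 min, against 5.66, 6.06 and 5.73 at 60 min. Arrays A and B were the highest at 120 min and C the lowest, the reverse of EGR1, and the groups did not overlap. The difference was 0.78 ± 0.14 (SE, 95% interval 0.48 to 1.09, limma adjusted p of 0.363), and 0.90 ± 0.15 without the C arrays. With EcN the NAB2 difference between the times was 0.60 ± 0.14, and in mock it was 0.18 ± 0.14. NAB2 levels in mock were 6.06, 5.98 and 5.91 at 120 min and 5.77, 5.82 and 5.81 at 60 min, so the ST 60 min arrays overlapped mock and all 3 ST 120 min arrays lay above every mock array.

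The other genes with the 10 smallest p in the higher direction had log2 differences between 0.42 and 1.09. MIR4525 had levels of 4.32, 4.81 and 4.54 at 120 min of ST, against 3.21, 3.43 and 3.75 at 60 min, a difference of 1.09 ± 0.23 (SE). MIR920 differed by 0.78 ± 0.19, with 2.65, 2.70 and 2.06 at 120 min against 1.79, 1.61 and 1.67 at 60 min, and it passed the filter with only 1 array above its median outside ST 120 min. PMEPA1, a TGF-beta target that restrains SMAD signalling, had 4.55, 4.58 and 5.00 at 120 min against 3.72, 4.34 and 4.04 at 60 min, a difference of 0.68 ± 0.16. CNN2, an actin-binding calponin whose promoter stretch with a CArG box is shown above, had 8.74, 8.41 and 8.25 at 120 min against 7.96, 7.99 and 8.19 at 60 min, a difference of 0.42 ± 0.11. EXOC3L1 differed by 0.59, the ubiquitin ligase gene ZNRF2 by 0.58, the thromboxane synthase gene TBXAS1 by 0.48, PEX5L by 0.45 and the zinc finger gene ZNF814 by 0.44. At 60 min PEX5L (1.99, 2.25 and 2.26) lay below the array medians, and EXOC3L1 lay above on only 1 array. All 10 had separate groups, which their choice by the smallest p made likely and which adds no support. Their limma adjusted p lay between 0.363 and 0.884.

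In the lower direction the 10 genes with the smallest p had log2 differences between -0.98 and -0.45. ZNF554, a zinc finger gene, had levels of 4.45, 4.41 and 4.51 at 120 min of ST, against 5.73, 5.57 and 5.00 at 60 min. The difference was -0.98 ± 0.21 (SE), and -1.22 ± 0.17 without the C arrays. ZBTB7C-AS2 differed by -0.45 ± 0.08, with 2.0, 1.88 and 2.01 at 120 min against 2.47, 2.43 and 2.35 at 60 min. All its 120 min values lie below every ST array median (2.28 to 2.31), as do those on the other 12 arrays, which ran from 1.80 to 2.03. The hair keratin gene KRT32 differed by -0.65, with 1.76, 1.99 and 1.63 at 120 min, all below the array medians, against 2.51, 2.49 and 2.31 at 60 min, and it passed the filter with only 2 arrays outside ST 60 min. TMEM102 differed by -0.71, ZNF827 by -0.63, the estrogen receptor beta gene ESR2 by -0.57 and the guidance molecule and BMP co-receptor gene RGMA by -0.57. ESR2 had 1.71, 1.77 and 2.16 at 120 min, all below the array medians. MIR541 differed by -0.55, SIPA1L2 by -0.48 and ACTA2-AS1 by -0.47. All 10 again had separate groups, which their choice by the smallest p made likely and which adds no support. The limma adjusted p of the 10 lay between 0.363 and 0.884. The lowest difference of any gene tested was -1.29 ± 0.39 for ATOH1, a basic helix-loop-helix factor named outside the rule, with 4.10, 3.32 and 3.95 at 120 min against 5.20, 5.18 and 4.85 at 60 min.

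The array probes microRNA genes as precursor transcripts, so the levels above are not those of the mature forms. The mature sequences of the 3 named microRNA genes, from RefSeq (GRCh38.p14), are shown with the seed, bases 2 to 8, in capitals, because the seed defines which targets a microRNA can pair with.
hsa-miR-4525: gGGGGGAUgugcaugcugguu
hsa-miR-920: gGGGAGCUguggaagcagua
hsa-miR-541-5p: aAAGGAUUcugcugucggucccacu
hsa-miR-541-3p: uGGUGGGCacagaaucuggacu
No 2 of these 4 share a seed. Of 326 microRNA genes tested, 7.36% had an unadjusted p under 0.05, beside 4.54% of 13798 protein-coding genes and 6.31% of 1093 long non-coding genes. The median standard error was 0.26 for microRNA genes and 0.14 for protein-coding genes.

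NF-kB target genes differed between arrays far more than between the times. NFKBIA, which holds NF-kB in the cytoplasm, had log2 levels of 8.39, 8.37 and 10.64 at 120 min of ST, against 8.43, 8.30 and 10.85 at 60 min. TNFAIP3, the deubiquitinase A20 that ends signalling, had 6.52, 6.38 and 9.60 at 120 min, against 6.19, 6.25 and 9.48 at 60 min. For both genes the C array stood far above A and B at each time, and the groups overlapped. The log2 differences were -0.06 ± 0.85 for NFKBIA (SE, 95% interval -1.86 to 1.74), 0.20 ± 1.10 for TNFAIP3 and 0.41 ± 1.85 for CXCL8. These errors come from the fit without pairing, so they hold the spread between letters. Within the same letter, the differences for A, B and C were -0.04, 0.07 and -0.21 for NFKBIA, 0.33, 0.13 and 0.13 for TNFAIP3, and 0.51, -0.12 and 0.83 for CXCL8.

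Among secreted factors, TNF and CXCL2 are named outside the rule. TNF, a pro-inflammatory cytokine, had log2 levels of 3.17, 3.0 and 6.12 at 120 min of ST, against 2.72, 2.93 and 5.55 at 60 min. CXCL3, a neutrophil-attracting chemokine, had 2.34, 2.97 and 4.28 at 120 min, against 2.6, 2.3 and 2.72 at 60 min. CXCL2 had 2.81, 3.63 and 6.29 at 120 min, against 3.62, 3.56 and 6.46 at 60 min. On the C arrays TNF and CXCL3 were higher at 120 min and CXCL2 was not, and with 1 such array per time this has no replicate check. None of the 21 cytokine genes, 18 NF-kB subunit and inhibitor genes or 19 other NF-kB targets tested had an unadjusted p under 0.05. Their median log2 differences were 0.12, 0.10 and 0.13, and without the C arrays 0.02, 0.04 and -0.01. RELB had the highest difference of the subunits (0.66), CXCL10 of the cytokines (0.71) and TNFRSF9 of the other targets (0.53), while KLF6 had the lowest of the other targets (-0.39).

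**Figure D3:**
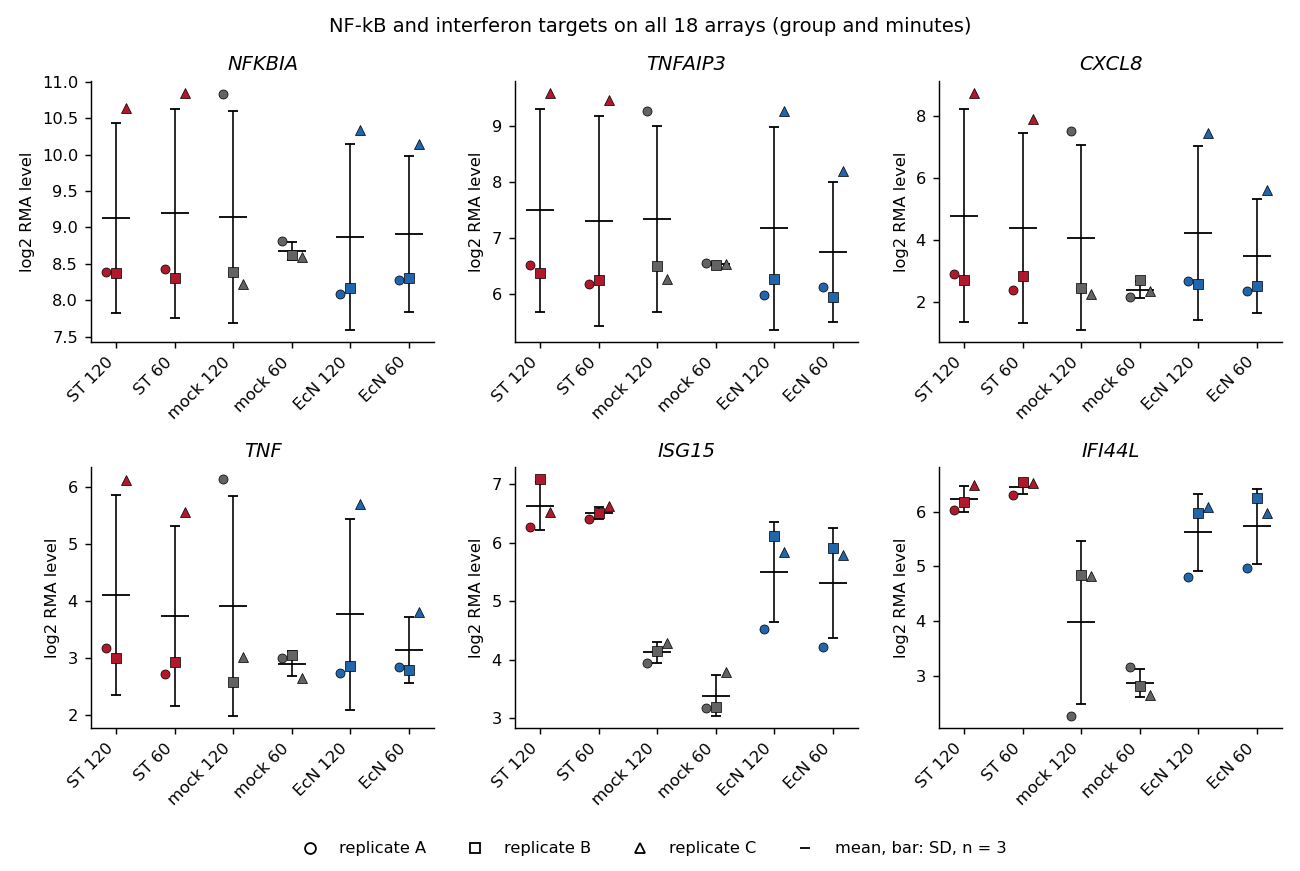
Log2 levels of NFKBIA, TNFAIP3, CXCL8, TNF, ISG15 and IFI44L on all 18 arrays, by group and minutes, with replicates A, B and C as circle, square and triangle, horizontal lines for means and bars for the SD (n = 3). The C arrays of ST and EcN and the mock 120 min A array stand above the rest for the NF-kB targets, as in CXCL8 with 8.76 and 7.92 on the ST C arrays, while ISG15 lay between 6.27 and 7.08 on all 6 ST arrays.

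Interferon-stimulated genes, which encode antiviral effectors, had mostly small differences between the times of ST. ISG15 had log2 levels of 6.27, 7.08 and 6.53 at 120 min, against 6.41, 6.50 and 6.62 at 60 min, a difference of 0.11 ± 0.41 (SE). IFI44L differed by -0.23 ± 0.53, with 6.03, 6.17 and 6.49 at 120 min against 6.30, 6.55 and 6.52 at 60 min. Both are named outside the rule. Mock levels of ISG15 ran from 3.94 to 4.28 at 120 min and from 3.17 to 3.79 at 60 min, so all 6 ST arrays lay above all mock arrays. Of 32 such genes tested, of 35 listed, the median difference was -0.05, 19 lay below 0, and the 95% interval lay within 2-fold for 28. At an unadjusted p under 0.05 there was only IFIT2, a protein that binds viral RNA, with 2.04, 2.23 and 2.40 at 120 min against 3.05, 2.70 and 2.53 at 60 min. The difference was -0.54 ± 0.20, with separate groups, and IFIT2 lay above the array median on only 1 of the 120 min arrays. IFI44 had the lowest difference of the list, -0.70 ± 0.41, and array A was its lowest at both times (3.35 at 120 min and 4.49 at 60 min).

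Components of the receptor pathway had a median log2 difference of 0.08 over 18 genes tested. TLR5 itself, read by probes for the human gene and not known to read the murine transgene, had 3.17, 3.59 and 3.50 at 120 min of ST, against 3.73, 3.79 and 3.96 at 60 min, a difference of -0.41 ± 0.18 (SE). TOLLIP, an inhibitor of receptor signalling, had 4.84, 5.12 and 4.94 at 120 min against 4.70, 4.66 and 4.59 at 60 min, a difference of 0.32 ± 0.12. Both had separate groups and an unadjusted p under 0.05 (0 genes of the list without the C arrays), and neither passed the limma adjusted test (0.990 for each).

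Feedback inhibitors of the MAP kinases had differences in both directions. DUSP16, a phosphatase that acts on JNK and p38, had log2 levels of 8.87, 8.70 and 9.21 at 120 min of ST, against 8.51, 8.58 and 8.65 at 60 min. DUSP6, a phosphatase for ERK, had 5.20, 5.12 and 4.56 at 120 min, against 5.64, 5.38 and 5.30 at 60 min. The groups were separate for both, with differences of 0.35 ± 0.13 and -0.48 ± 0.18 (SE). In mock the DUSP16 and DUSP6 differences were 0.35 and -0.11, and with EcN 0.34 and -0.01, so that of DUSP16 was not particular to ST. SPRED1, which blocks RAF activation, differed by 0.27 ± 0.12 with overlap, and ERRFI1, an inhibitor of the EGF receptor, by 0.22. An unadjusted p under 0.05 was found for 3 higher genes and 1 lower gene of 16 (2.05% and 2.75% over all genes), each with a limma adjusted p of 0.990, and for 0 without the C arrays.

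Targets of serum response factor and YAP, which include cytoskeletal genes, had a median log2 difference of 0.10 over 21 genes. VCL, the focal adhesion protein vinculin, had 10.24, 10.15 and 10.44 at 120 min of ST, against 9.93, 9.89 and 9.87 at 60 min, a difference of 0.38 ± 0.11 (SE). With EcN the VCL difference was 0.30 and in mock 0.06. CNN2 and VCL were the only members of this list at an unadjusted p under 0.05. Without the C arrays only CNN2 was, with a difference of 0.60 ± 0.14, while VCL differed by 0.29 ± 0.14. CNN1, a related calponin, differed by 0.34 ± 0.16, and ACTB, the cytoplasmic actin gene, by -0.18 ± 0.26. SMAD6, an inhibitor of BMP signalling, had 6.37, 6.63 and 5.79 at 120 min against 6.68, 6.66 and 6.70 at 60 min, a difference of -0.41 ± 0.16, and -0.17 ± 0.14 without the C arrays. In mock the SMAD6 difference was -0.66 and with EcN -0.04. Its own list, of TGF-beta and BMP feedback genes, had a median of 0.04 over 14 genes tested, with 8 above 0. The groups were separate for 3 higher genes and 1 lower gene of that list (6.11% and 5.82% over all genes).

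Cell cycle genes lay slightly above 0 as a list, with a median log2 difference of 0.06 and 28 of 33 above 0, while 8211 of all 16111 genes lay above 0. The groups were separate for 8 in the higher direction (background 6.11%) and for 0 in the lower (background 5.82%). CDC6, which loads the replicative helicase, had 8.78, 8.74 and 8.90 at 120 min of ST against 8.44, 8.51 and 8.60 at 60 min, a difference of 0.29 ± 0.12 (SE). CDC25A, a phosphatase that activates cyclin-dependent kinases, differed by 0.22 ± 0.09. The members move together in dividing cells and are not independent, and without the C arrays 11 of 33 lay below 0. Ribosome biogenesis factors had 27 of 32 above 0 and a median of 0.08, with 0 at an unadjusted p under 0.05, and 11 lay below 0 without the C arrays. Cytosolic ribosomal proteins had a median of -0.01 over 21 genes.

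Clock genes had a median log2 difference of -0.08 over 16 genes, with PER3, a period gene, at -0.46 ± 0.20 (SE) and TEF, a PAR bZIP factor, at -0.45 ± 0.20. TEF had 2.71, 2.72 and 2.63 at 120 min of ST against 3.22, 3.22 and 2.99 at 60 min, with separate groups, while PER3 overlapped. Among the 12 replication-dependent histone genes tested, of 32 listed, H2BC13 lay 0.65 ± 0.22 higher, with 4.82, 4.87 and 5.22 at 120 min against 4.57, 4.17 and 4.21 at 60 min. Lists for the unfolded protein response, cholesterol synthesis, p53, hypoxia, and NRF2 each had 0 genes at an unadjusted p under 0.05 and medians between -0.04 and 0.06. GAPDH, a glycolytic gene often used for reference, differed by -0.08 ± 0.11. Among heat shock proteins DNAJB4, a co-chaperone, differed by 0.26 ± 0.11, and among amino acid transporters SLC7A1 by 0.29 ± 0.12.

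**Figure D4:**
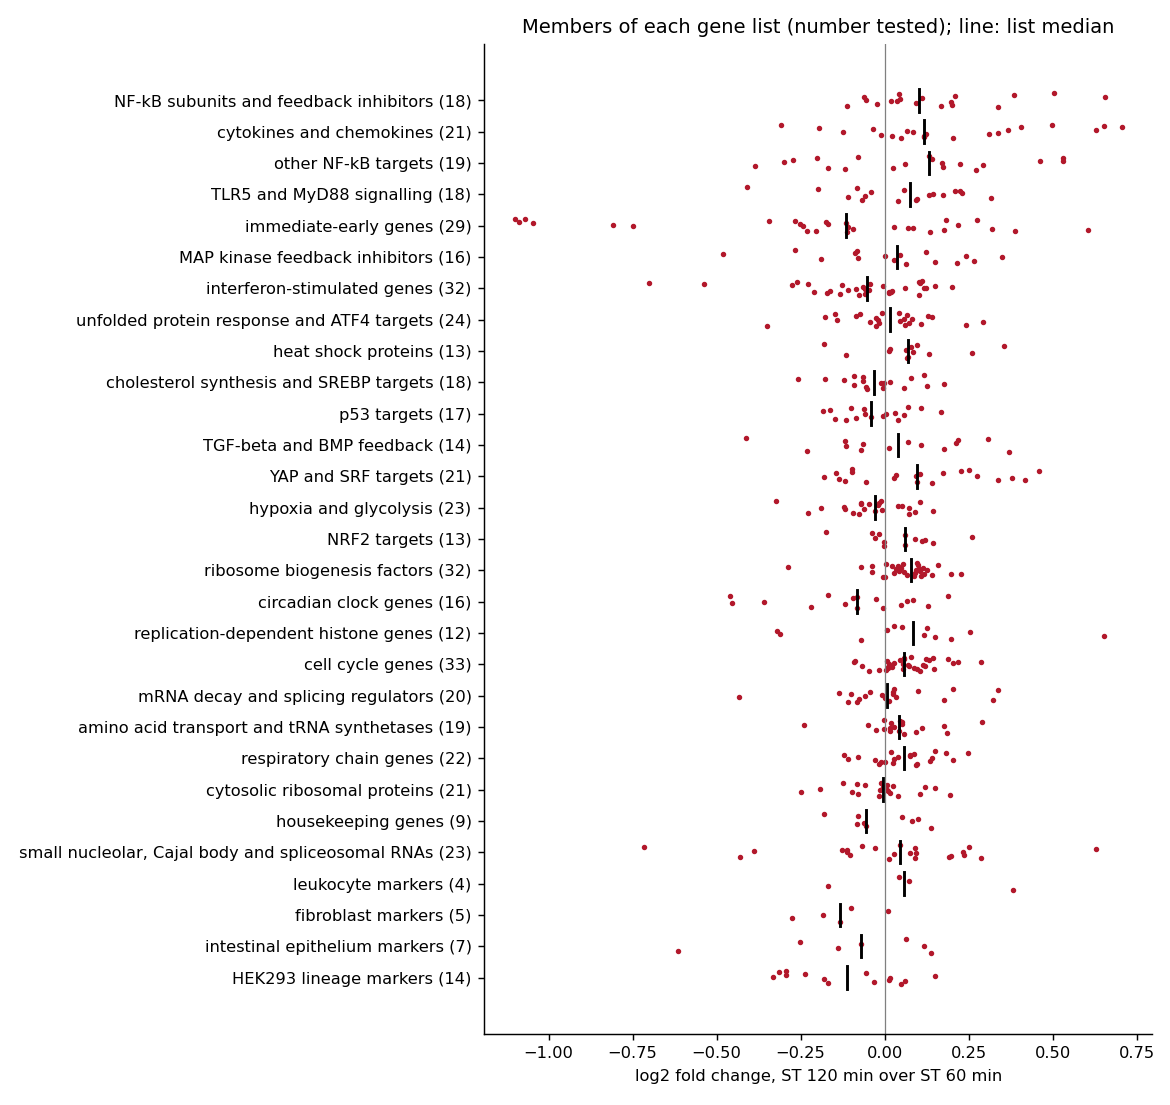
Log2 fold change of ST 120 min over ST 60 min (horizontal axis) for the tested members of 29 gene lists, 1 point per gene, with a vertical line at each list's median and the number tested in brackets. List medians lay between -0.13 and 0.13, and the 4 immediate-early genes near -1.1 lie apart from the other points.

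Markers of the line and of other cell types were read for identity. Of 15 markers linked to HEK293 cells, 14 were tested, with NEFL at log2 means of 10.40 at 120 min and 10.46 at 60 min of ST and CDH2 at 8.60 and 8.63, while NEFM (1.81 and 2.04) lay below the array medians. NEFH (3.02 and 3.31) and PCDH8 (2.70 and 2.86) were also among the low ones. Of the 14, 9 lay below 0 between the times, with a median log2 difference of -0.11. SIX2, a nephron progenitor factor, had the only unadjusted p under 0.05 among them, with a difference of -0.33 ± 0.16 (SE), and PAX2, a renal developmental factor, differed by -0.29 ± 0.14 with separate groups. Of 12 leukocyte markers only CD14, CD68, CSF1R and CD79A passed the filter on low values, and except for the lysosomal protein gene CD68 (9.37 and 9.30) their means were 2.65 to 3.78 at 120 min and 2.61 to 3.39 at 60 min. Fibroblast markers (5 of 10 tested) had 0 genes at an unadjusted p under 0.05. Their means at 120 and 60 min were 6.01 and 6.14 for FBLN1, 4.88 and 5.07 for LUM and 4.50 and 4.60 for COL1A1. THY1 (2.38 and 2.65) and PDGFRB (2.11 and 2.10) were lower. Of the 7 intestinal epithelium markers tested, CDH17, a cadherin, differed by -0.62 ± 0.16 (SE), with 3.59, 3.87 and 3.95 at 120 min against 4.57, 4.47 and 4.22 at 60 min. LGR5 (8.90 and 8.78) and CDX2 (5.52 and 5.77) had the highest means of these markers. The others had means of 2.37 to 3.80 at 120 min and 2.44 to 4.42 at 60 min. Whether any of these had a part in the results was not tested.

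The difference between the times was next set against that of mock cells, in a test that takes ST 120 over 60 min minus mock 120 over 60 min. limma called 0 of 16111 genes, with a smallest adjusted p of 0.310, and 879 genes higher (5.46%) and 852 lower (5.29%), together 10.7%, by the unadjusted threshold of 0.05. Leaving out the mock 120 min A array, which carried high CXCL8, gave 475 called genes (2.95%), of which 180 were higher and 295 lower in the ST difference. Leaving out the C arrays as well gave 1 called gene, EGR1, at -2.71 ± 0.21 (SE, limma adjusted p of 0.00858), where the lone mock 120 min array was assumed to vary like the other groups. The number of calls therefore rests on single arrays.

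Many immediate-early genes had differences of opposite sign in ST and in mock. In mock, 27 of the 29 genes were higher at 120 min, and all 18 that lay below 0 with ST were among them. The median mock difference over all genes was -0.01. EGR1 in mock had log2 levels of 9.80, 10.99 and 10.84 at 120 min and 9.27, 9.04 and 8.89 at 60 min, a difference of 1.47 ± 0.37 (SE). ST minus mock was -2.56 ± 0.53 for EGR1 and -2.17 ± 0.46 for EGR3, each with a limma adjusted p of 0.310. Without the mock 120 min A array the values were -2.94 ± 0.50 (limma adjusted p of 0.0116) for EGR1, -2.37 ± 0.48 (0.0225) for EGR3 and -1.48 ± 0.32 (0.0270) for NR4A2. That array was left out after its values were seen. It was the lowest mock 120 min array for each of these genes, so leaving it out must widen the difference. These p-values therefore add no support. Over the list, 24 of 29 lay below 0 in ST minus mock, with a median of -0.42, where 7926 of all 16111 genes lay below 0. An unadjusted p under 0.05 was found for 8 lower genes and 0 higher ones, where 5.29% and 5.46% of all genes were. These counts are descriptive too, for the reasons given above for this list. In ST minus mock the 5 genes of smallest p were LINC01711 at -1.40, CPB2-AS1 at 0.87, PCDH7, a protocadherin, at 0.65, MYB, a transcription factor, at -0.85 and ZNF554 at -1.45. The differences between the times in ST and in mock alone were -0.63 and 0.77 for LINC01711, 0.39 and -0.47 for CPB2-AS1, and 0.16 and -0.49 for PCDH7. They were -0.14 and 0.71 for MYB and -0.98 and 0.47 for ZNF554.

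With EcN flagellin many of the same genes also lay lower at 120 min. EGR1 with EcN had log2 levels of 8.92, 8.81 and 9.94 at 120 min and 10.78, 10.51 and 11.40 at 60 min, a difference of -1.67 ± 0.37 (SE), beside -1.09 ± 0.37 with ST. The difference of these differences, ST minus EcN, was 0.58 ± 0.53 (95% interval -0.53 to 1.70, limma adjusted p of 0.998). It was 0.26 ± 0.54 for FOS, -0.17 ± 0.46 for EGR3 and 0.18 ± 0.20 for NAB2. Of the 29 immediate-early genes, 19 lay lower at 120 min with EcN and 16 lay lower with both flagellins. The median EcN difference over all genes was -0.01. Across all genes ST minus EcN gave 0 called genes in limma, a smallest adjusted p of 0.907, and 403 genes higher (2.5%) and 349 lower (2.17%), together 4.67%, by the unadjusted threshold of 0.05. The 5 genes of smallest p were TACC1 at -0.70 ± 0.13, MIR4525 at 1.46 ± 0.32, MIR4440 at 1.21, IGLJ3 at -0.75 and the sterol acyltransferase gene SOAT2 at -1.02.

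**Figure D5:**
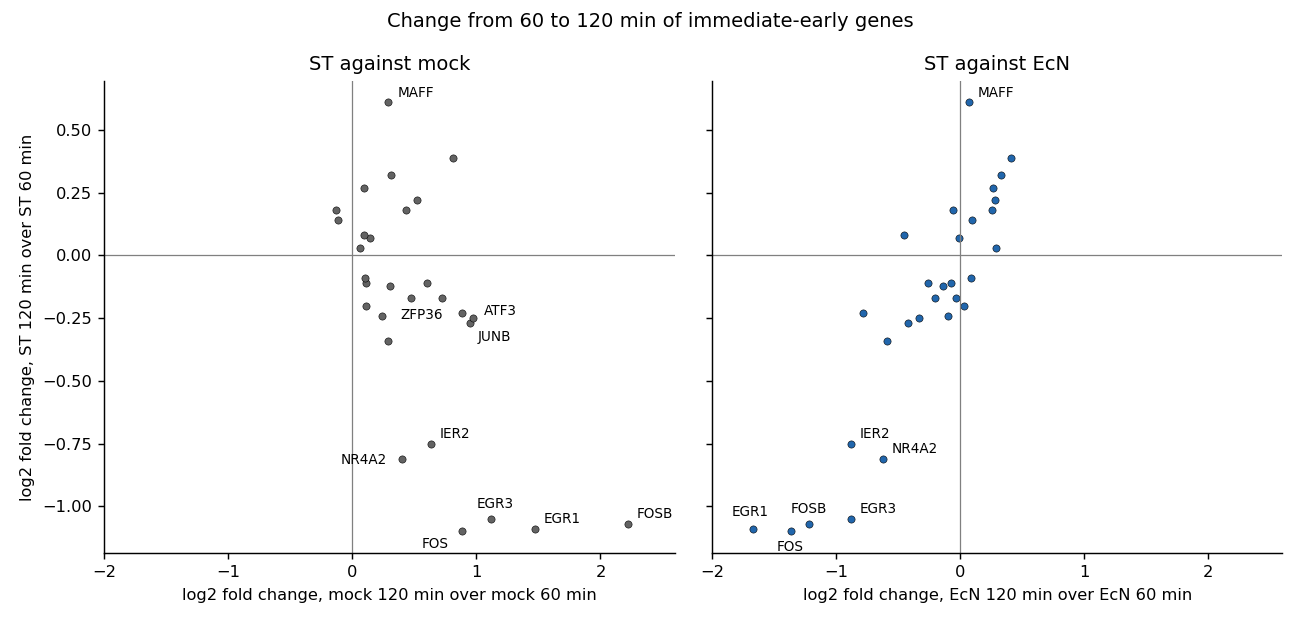
Log2 fold change of ST 120 min over ST 60 min (vertical axis) for 29 immediate-early genes, 1 point per gene, against the same fold change in mock (left panel, grey) and with EcN (right panel, blue). EGR1 lies at -1.09 with ST, 1.47 in mock and -1.67 with EcN, and all 18 genes below 0 with ST lie right of 0 in mock.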

How the data were processed

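Human Gene 2.1 ST arrays (Affymetrix) were hybridised with RNA of 18 samples, labelled from 100 ng of total RNA each. The deposited values are log2 levels from RMA in oligo 1.30.0, per the submitters' processing notes, and ran from 0.17 to 13.62. They were used as deposited. The genome build of the array and its annotation version are not stated. Transcript clusters were named through the platform annotation, with 655 symbols updated from the RefSeq gene table of GRCh38.p14, and 1842 with several symbols and 27904 with none were tested apart. The filter on low values used all 18 arrays, so a gene could pass through the group where it was high, and 399 genes had several transcript clusters, of which the one with the highest mean stood for the gene.

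limma 3.58.1 in R 4.3.3 fitted 6 group means over all 18 arrays (12 residual and 4.20 prior degrees of freedom). Two-sided p-values were adjusted by Benjamini-Hochberg over 16111 genes, with a call at an adjusted p under 0.05. Intervals and SE are those of this fit. Array number limits the precision.

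Named genes were the 10 smallest p in each direction of ST 120 over 60 min, since under 10 were called, the 3 smallest p of each of 29 lists, NFKBIA, TNFAIP3, CXCL8, EGR1, TLR5, ACTB and GAPDH, and the 5 smallest p of each difference of time changes. Exceptions are marked, and genes that only bound a list's range or that the leading counts contain are named for that. The members and lists were chosen with earlier results of these data known. EGR2, BTG2 and BIRC3 were not analysed here. Alternatives covered letters as a block, arrays left out, filters, scalings, variance settings and array weights.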

Additional observations from a re-analysis of the deposited data

Results flagged for a closer look

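Transcript cluster 16654733, which has no single gene symbol in the annotation used here, was the 1 of 13332 such clusters called between the times (592 had an unadjusted p under 0.05). Its log2 levels were 4.15, 2.95 and 3.42 at 120 min of ST, against 0.65, 0.96 and 0.34 at 60 min, a difference of 2.86 ± 0.34 (SE, limma adjusted p of 0.00846). The groups did not overlap. Mock levels were 0.94, 0.67 and 1.96 at 120 min and 0.71, 0.42 and 0.41 at 60 min. With EcN they were 1.16, 1.06 and 1.55 at 120 min and 1.03, 1.79 and 1.05 at 60 min. All 3 ST 120 min arrays lay above the other 15, and they are the only ones above their array medians (2.27 to 2.32 over the 18 arrays). The cluster therefore passed the filter on low values only through the group where it is high, the difference is against values below those medians, and its p and direction support nothing. It lies outside the genes of the comparison, and its identity was not analysed here.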

How the results depend on the processing

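Under all 30 alternative settings limma called 0 genes between 120 and 60 min of ST, with 610 to 1223 at an unadjusted p under 0.05. Centring each array on its median gave 436 higher and 356 lower, against 330 and 443. ST minus EcN also stayed at 0 called throughout, with 570 to 1127 at an unadjusted p under 0.05. ST minus mock gave 0 to 475 called genes when 1 array was left out, the 475 without mock 120 min A, and 1 without the C arrays and mock 120 min A. Over all its settings it had 918 to 3224 at an unadjusted p under 0.05, against 1731 as reported. The cause was not tested.

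Deviations of the ST arrays from their group means, compared over genes between the times, correlated at 0.0596 for A, 0.102 for B and 0.230 for C within the same letter. Between A and B they correlated at 0.0732 and 0.0691, and between C and another letter at -0.156 to -0.106. The C arrays thus shared deviations across the times, while A and B were hardly told apart by letter, so the main fit was left unpaired. With the letter as a replicate block, 0 genes were called in each of the 3 comparisons, whether all arrays or the compared groups alone were fitted (ST 120 over 60 min had an unadjusted p under 0.05 for 336 higher and 436 lower genes, or 467 and 649).

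Of 3911 values of named genes, 27 had the opposite sign, in 12 genes, none of them called. Over the settings that left out 1 array, the differences ran from -0.82 to 0.77 for NFKBIA, -0.85 to 1.28 for TNFAIP3, -1.58 to 2.18 for CXCL8, -0.64 to 1.28 for TNF, -1.33 to 0.65 for CXCL2 and -0.78 to 0.41 for JUNB. They ran from -0.53 to 0.12 for ATF3, -0.42 to 0.06 for ACTB, -0.19 to 0.01 for PPIA, -0.34 to 0.00 for CSF1R and -0.11 to 0.29 for ISG15. Array weights gave -0.11 for TNFAIP3 and -0.26 for CXCL8, and leaving out the C arrays gave 0.01 for NFKBIA and 0.13 for CDX2, with or without mock 120 min A. The cause was not tested.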
